A study of Mus musculus with 6 samples.

Results

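Serpins and other antiproteases were followed in whole mouse lung after naphthalene, a chemical that injures the conducting airway. The genes were chosen by symbol, as every gene named Serpin, Spink with a number or Wfdc with a number, together with Slpi, whose probe set carried a single annotated gene symbol. This gave 38 genes of the 16537 tested, each read by 1 probe set. The Falcor-null group held 3 samples, null for the long non-coding RNA gene Falcor, with labels of 31, 32 and 33 days after naphthalene. The wild-type group held 3 samples with labels of 28, 29 and 30 days. All 6 carried the strain label CD1_C57Bl6_mix and all had received naphthalene, so neither an uninjured lung nor a single day was shared between the groups, and day and genotype cannot be told apart. Whether each came from its own animal is not stated, so the p-values measure only how much these samples vary, and that variation may be technical.

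Antiproteases hold back the enzymes that immune cells, plasma and epithelium release. A serpin offers the protease a flexible loop as bait and, once cut, traps the enzyme in an irreversible complex. Kazal (Spink) and whey acidic protein (WAP, the Wfdc genes and Slpi) inhibitors are small, disulfide-rich domains that block the active site like a stopper. In the lung, alpha-1 antitrypsin from the blood and Slpi from the airway lining are the best known guards of elastic tissue against neutrophil elastase.

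As a first check on genotype, probe set 17392549, annotated to Falcor as 9030622O22Rik, gave log2 signals of 6.82, 6.34 and 6.32 on the arrays labelled Falcor-null, against 4.69, 5.01 and 5.45 on the wild-type arrays. It was thus higher, not lower, on the arrays labelled null (log2 difference 1.44, SE 0.21, limma adjusted p 0.0423). Whether that probe set lies inside the sequence removed is unknown, and every direction below rests on the labels. Lung identity genes such as Sftpc and Scgb1a1 averaged 11.99 to 12.13 on the arrays labelled Falcor-null and 12.09 to 12.18 on the wild-type arrays. Correlations between arrays across probe sets ran from 0.982 to 0.986 within a group and from 0.970 to 0.976 between groups, with 6 and 9 pairs of arrays. The number of arrays limits the precision. In whole lung, fewer cells of a type and less RNA per cell cannot be told apart.

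Serpina1c, a copy of the alpha-1 antitrypsin gene, and Spink5, an inhibitor of epithelial kallikreins, fell on the arrays labelled Falcor-null, and no antiprotease gene passed as higher. These 2 genes, 5.26% of the 38, passed an adjusted p of 0.05 in limma, against 0.556% of all genes tested. Both were lower, where 0.460% of all genes passed as lower. At an unadjusted p of 0.05, 9 members were lower and 4 higher, 34.2% of the 38 against 13.8% of all genes. The 3 values of 1 group lay wholly apart from those of the other in 14 members (36.8%, against 19.5% of all genes). Of these, 10 were lower (26.3%, against 10.6%) and 4 higher (10.5%, against 8.96%). The median log2 difference was -0.07 over the 38 members and 0.0026 over all genes. In either direction, 26 of the 38 members differed by less than 0.3, as did 14678 of the 16537 genes tested. Differences that small thus made up a smaller share of the members than of all genes. Of the 38 members, 19 had a mean signal below the 30th percentile of all genes, where a difference can be compressed. Serpina1c lies just under that mark, and on the arrays labelled Falcor-null only 10.8% of genes had a lower mean. Of these 19 dim genes 1 passed, and of the other 19 also 1.

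**Figure D1:**
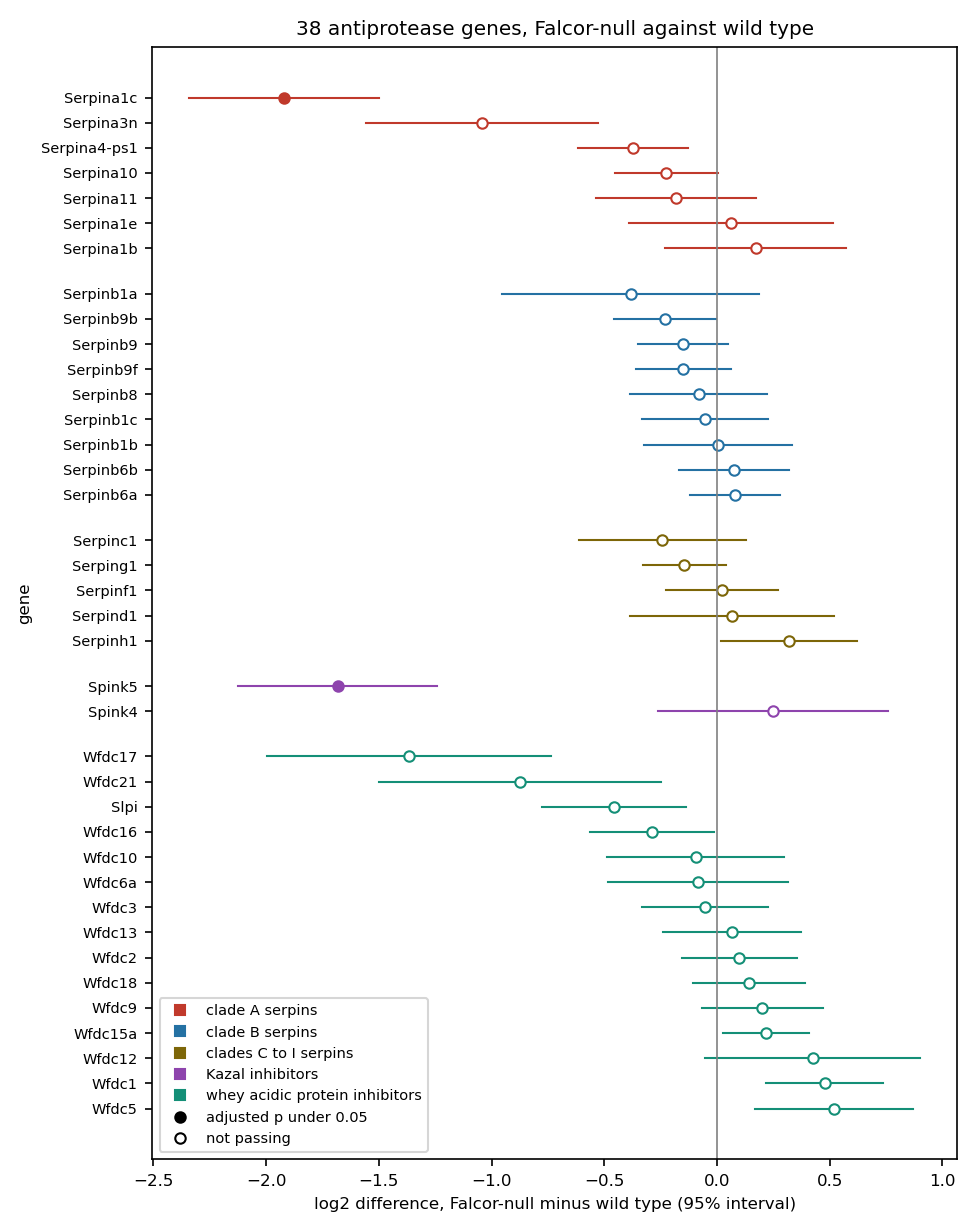
Log2 difference of each of the 38 antiprotease genes, arrays labelled Falcor-null minus wild type (x axis), with the 95% interval of the limma fit and 3 arrays a group. Genes run down the page within 5 families, and filled points mark an adjusted p under 0.05: Serpina1c at -1.92 and Spink5 at -1.68, with no filled point to the right of 0.

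**Figure D2:**
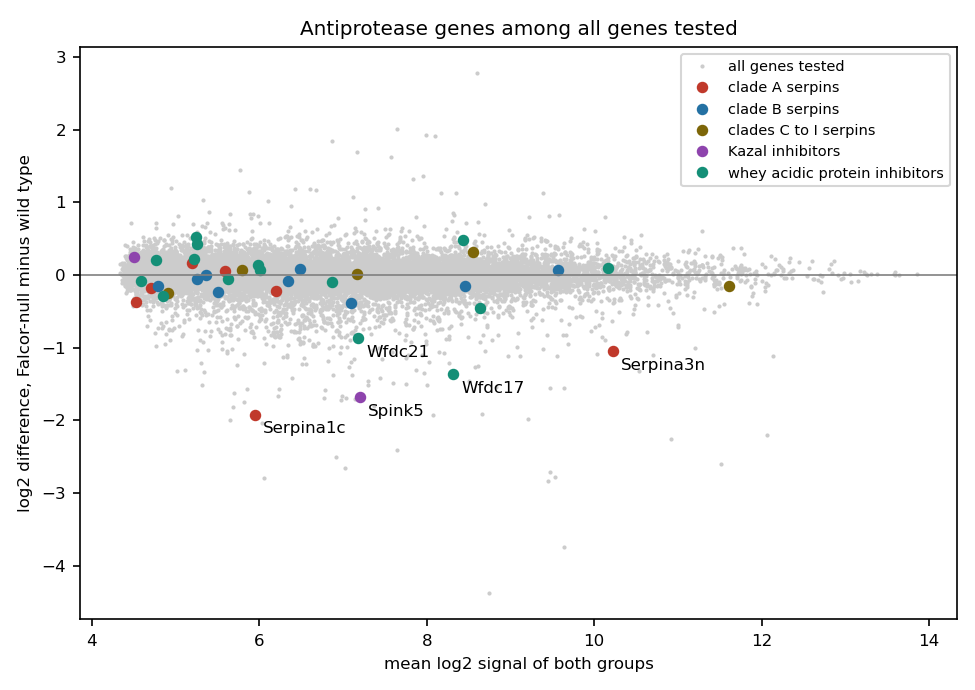
Log2 difference of each gene (y axis, arrays labelled Falcor-null minus wild type) against its mean log2 signal over both groups (x axis), with all 16537 genes in grey and the 38 antiprotease genes in colour by family. Serpina1c, Spink5, Wfdc17, Serpina3n and Wfdc21 lie between -1.92 and -0.87, while the other members lie between -0.46 and 0.52.

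Mice carry several near-identical copies of the alpha-1 antitrypsin gene, side by side on chromosome 12, and 3 of them had a probe set of their own on these arrays. Because signal can be shared between copies, a value given for 1 copy is uncertain as to which copy it measures. The RefSeq promoter windows of these copies (GRCm38.p6, 250 bases before to 50 after the annotated start, all on the minus strand) show how alike they are. They lie at chr12:103904901-103905200 for Serpina1c, chr12:103738140-103738439 for Serpina1b and chr12:103956848-103957147 for Serpina1e. Capitals mark aligned bases that differ between Serpina1c and either other copy.
Serpina1c: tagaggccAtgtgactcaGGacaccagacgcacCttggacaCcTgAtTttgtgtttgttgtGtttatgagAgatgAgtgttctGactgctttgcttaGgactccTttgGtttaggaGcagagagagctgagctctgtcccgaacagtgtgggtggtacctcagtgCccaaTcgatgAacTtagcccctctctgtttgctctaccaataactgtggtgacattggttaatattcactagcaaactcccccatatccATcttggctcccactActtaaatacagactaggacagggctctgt
Serpina1b: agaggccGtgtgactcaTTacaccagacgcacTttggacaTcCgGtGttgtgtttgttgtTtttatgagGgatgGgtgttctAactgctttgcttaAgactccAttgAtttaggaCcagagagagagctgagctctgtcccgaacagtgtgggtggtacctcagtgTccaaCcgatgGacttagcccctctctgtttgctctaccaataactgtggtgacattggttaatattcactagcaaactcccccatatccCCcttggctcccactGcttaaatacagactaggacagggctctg
Serpina1e: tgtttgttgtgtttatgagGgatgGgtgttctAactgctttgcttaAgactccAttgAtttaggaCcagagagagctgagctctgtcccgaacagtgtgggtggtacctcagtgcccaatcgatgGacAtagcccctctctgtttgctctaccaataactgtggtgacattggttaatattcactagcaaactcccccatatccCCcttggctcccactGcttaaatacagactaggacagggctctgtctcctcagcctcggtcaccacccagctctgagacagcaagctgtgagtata
Over the aligned bases, Serpina1c shared 92.6% with Serpina1b (276 of 298) and 95.2% with Serpina1e (237 of 249), whereas Serpina1b and Serpina1e shared 98.4% (244 of 248). The window of Serpina1e starts and ends further downstream, so its last bases have no partner in the other windows. All 3 windows held the letters GTTAAT, part of the site bound by the hepatocyte factor HNF1, on the plus strand of the gene, a match found on either strand in 7.10% of 32851 mouse promoter windows. The letters TTGCNNAA, a C/EBP-like pattern found in 10.8% of windows, stood in the Serpina1b and Serpina1e windows. TGTTTAC, 1 form of the core that forkhead factors such as Foxa2 bind (3.65% of windows), and TTCNNNGAA, a STAT pattern (8.30%), were found in none of the 3. Other forms of the forkhead core were not searched, so a forkhead site in these windows is not excluded. The 4 patterns were searched on both strands, and no match says only that these letters are not in the window. Of the 28 members with a window (33 windows in all, none for Spink5), 0 held TGTTTAC, 5 GTTAAT, 2 TTCNNNGAA and 6 TTGCNNAA in at least 1 window. The 5 with GTTAAT include the 3 Serpina1 copies. The probe sets read transcripts, not these windows.

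Serpina1c (probe set 17283634) gave 5.40, 4.82 and 4.74 on the arrays labelled Falcor-null, against 6.93, 7.07 and 6.73 on the wild-type arrays. Even the nearest arrays of the groups lay well apart. The means were 4.99 ± 0.36 and 6.91 ± 0.17 (SD, n = 3 each), and the gene fell 3.79-fold (log2 difference -1.92, SE 0.18, adjusted p 0.0115). Serpina1b (probe set 17283604) gave 5.40, 4.89 and 5.55 on the arrays labelled Falcor-null and 4.96, 5.26 and 5.11 on the wild-type arrays. Serpina1e (probe set 17283641) gave 6.05, 5.24 and 5.57 on the arrays labelled Falcor-null and 5.61, 5.67 and 5.40 on the wild-type arrays. Both overlapped between groups, with 95% intervals of the log2 difference from -0.23 to 0.57 and from -0.39 to 0.51. The Serpina1c call was lost without Falcor-null replicate 2 (log2 difference -1.84, adjusted p 0.0608) and held with any other single array left out.

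The other clade A serpins are secreted, most of them by the liver, and lie in the same stretch of chromosome 12. Serpina3n, an acute-phase antichymotrypsin that inhibits granzyme B in mice, gave 9.72, 10.07 and 9.31 on the arrays labelled Falcor-null, against 10.39, 10.83 and 11.003 on the wild-type arrays. All 3 arrays labelled Falcor-null lay below all 3 wild-type arrays, but the log2 difference of -1.04 (SE 0.22) had an adjusted p of 0.101. Serpina4-ps1, a pseudogene, was also lower on every array labelled Falcor-null, with means of 4.34 ± 0.16 against 4.71 ± 0.10 in wild type (SD, n = 3 each). That log2 difference of -0.37 (adjusted p 0.187) lies near the floor of the scale, as only 0.091% of genes had a lower mean on the arrays labelled Falcor-null. Serpina10, the protein Z-dependent inhibitor of factor Xa, differed by -0.23 (adjusted p 0.369) and Serpina11 by -0.18 (adjusted p 0.652), both overlapping. In all, 5 of the 7 clade A genes were lower and 2 higher, and the median log2 difference was -0.23. In limma 1 passed (0.556% of all genes did) and 3 had an unadjusted p under 0.05 (13.8% of all genes did).

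Hepatocyte genes, among them those for plasma proteins, were lower alongside Serpina1c. All 12 measured of the 15 listed were lower on the arrays labelled Falcor-null, and 9 of them did not overlap (10.6% of all genes were lower without overlap). Of the 12, 2 passed in limma, against 0.556% of all genes, and 10 did not. Their mean log2 signal ran from 5.40 to 5.70 on the arrays labelled Falcor-null and from 6.25 to 6.38 on the wild-type arrays. Alb, the gene of serum albumin, gave 6.82, 6.15 and 6.65 on the arrays labelled Falcor-null, against 8.06, 8.18 and 7.94 in wild type (adjusted p 0.0180). Ttr, the carrier of thyroid hormone and retinol, fell as well (log2 difference -0.63, adjusted p 0.0371). The fibrinogen gene Fgg gave 4.70, 7.57 and 4.81 on the arrays labelled Falcor-null and 7.95, 8.40 and 8.70 in wild type (adjusted p 0.167). Falcor-null replicate 2 thus stood near wild type for Fgg, but not for Alb. Of the 12 genes, 6 were dim by the 30th percentile. The part of these genes in the Serpina1c result was not tested.

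**Figure D3:**
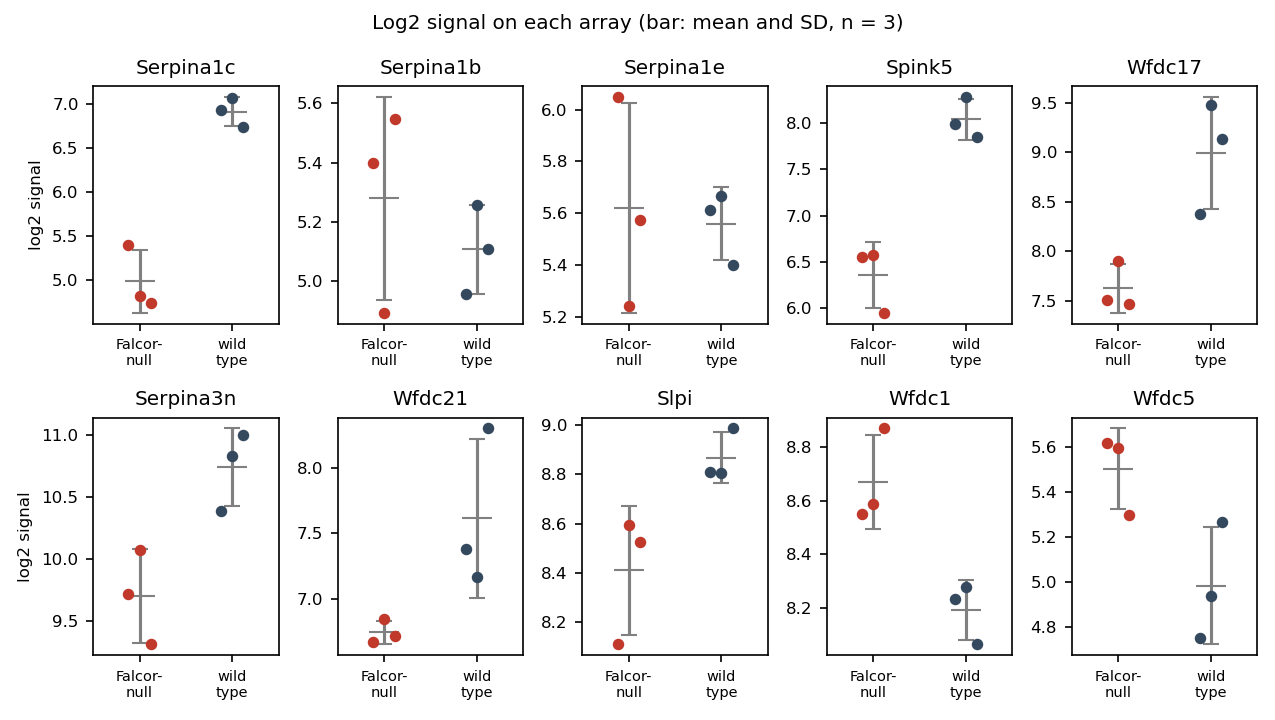
Log2 signal on each array (y axis, its own range in every panel) of 10 antiprotease genes, arrays labelled Falcor-null left and wild type right, with bars for the mean and SD of 3 arrays. The groups lie apart in every panel except Serpina1b and Serpina1e; Wfdc1 and Wfdc5 are the ones that are higher on the arrays labelled Falcor-null.

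Clade B serpins stay mostly inside cells and protect them from their own granule proteases. None of the 9 measured passed in limma, 1 had an unadjusted p under 0.05 (13.8% of all genes did), and 6 were lower and 3 higher. Serpinb1a, the inhibitor of neutrophil elastase, cathepsin G and proteinase 3, gave 7.10, 7.05 and 6.56 on the arrays labelled Falcor-null, against 7.06, 6.97 and 7.82 on the wild-type arrays. Wild type replicate 3 stood alone at the top, and the log2 difference of -0.38 (95% interval -0.95 to 0.19, adjusted p 0.545) was -0.11 without it. Serpinb9, which shields lymphocytes and dendritic cells from granzyme B, gave 8.47, 8.35 and 8.31 on the arrays labelled Falcor-null, against 8.45, 8.51 and 8.62 in wild type (log2 difference -0.15, 95% interval -0.35 to 0.05). Its relatives Serpinb9b and Serpinb9f differed by -0.23 and -0.15 (adjusted p 0.353 and 0.522), and Serpinb9b was the clade B gene whose groups did not overlap. Serpinb6b gave 9.76, 9.62 and 9.44 on the arrays labelled Falcor-null and 9.42, 9.55 and 9.63 in wild type. Its interval of -0.17 to 0.32 and that of its relative Serpinb6a, from -0.12 to 0.28, both spanned 0. Serpinb8 (-0.08), Serpinb1c (-0.05) and Serpinb1b (0.01) differed by less than the spread within their groups, with adjusted p-values from 0.841 to 0.993. The 9 intervals all lay within 1 log2 unit of 0, that is, within a 2-fold change. Serpinb1a to Serpinb1c, Serpinb6a and Serpinb6b, and the Serpinb9 genes are families of similar sequence, so that signal may be shared within each.

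Of the proteases that these serpins meet inside immune cells, none passed in limma. Of the 6 granzyme and perforin genes listed, 4 were measured, and Gzmb, the granzyme B gene, was not analysed here. The 4 had log2 differences from -0.37 to -0.04, and none had an unadjusted p under 0.05. The smallest p-values were those of Gzma (adjusted p 0.490) and Gzmk (adjusted p 0.532). T and NK cell markers, a list that also holds Gzma and Prf1, were lower in 11 of 11 measured genes on the arrays labelled Falcor-null. Of these, 3 passed in limma, against 0.556% of all genes. The 3 that passed were the T cell genes Cd3e, Cd3g and Cd4, while Cd8a (-0.42, adjusted p 0.510), Nkg7 (-0.28, adjusted p 0.404) and Ncr1 (-0.16, adjusted p 0.538) of cytotoxic cells overlapped. The T and NK list had means from 6.38 to 6.54 on the arrays labelled Falcor-null and from 6.997 to 7.22 in wild type. Among the neutrophil and monocyte serine proteases, Elane, the elastase itself, gave 5.22, 5.41 and 5.24 on the arrays labelled Falcor-null, against 5.41, 5.35 and 5.56 in wild type (adjusted p 0.530). Prtn3, proteinase 3, differed by -0.22 (adjusted p 0.508) and Ctsg, cathepsin G, by 0.16 (adjusted p 0.645), and Elane and Ctsg were dim. None of these 3 passed in limma or had an unadjusted p under 0.05.

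The remaining serpins act in blood clotting, complement and matrix. Serpinh1, the collagen chaperone HSP47, which is a serpin by structure but inhibits no protease, gave 8.74, 8.71 and 8.69 on the arrays labelled Falcor-null, against 8.51, 8.57 and 8.10 in wild type. Its groups did not overlap, and the log2 difference of 0.32 (SE 0.13) had an adjusted p of 0.334. Without wild type replicate 3, its lowest array, it was 0.17. Serping1, the inhibitor of complement C1 and kallikrein, gave 11.616, 11.46 and 11.53 on the arrays labelled Falcor-null and 11.72, 11.70 and 11.618 in wild type. These groups all but touched, and the log2 difference was -0.14 (95% interval -0.33 to 0.04). Serpinf1, the non-inhibitory factor PEDF, differed by 0.02 (95% interval -0.23 to 0.27). The thrombin inhibitors Serpinc1 (antithrombin) and Serpind1 (heparin cofactor II) differed by -0.24 and 0.07 (adjusted p 0.553 and 0.919), at signals below the 30th percentile. None of these 5 genes passed in limma, and 1, Serpinh1, had an unadjusted p under 0.05 (13.8% of all genes did).

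Spink5 (probe set 17350203), which encodes the multidomain inhibitor LEKTI that restrains kallikreins in stratified epithelium, gave 6.55, 6.57 and 5.95 on the arrays labelled Falcor-null. Against these, the wild-type arrays gave 7.99, 8.29 and 7.85, all above every array labelled Falcor-null. The means were 6.36 ± 0.35 and 8.04 ± 0.22 (SD, n = 3 each), and the gene fell 3.21-fold (log2 difference -1.68, SE 0.19, adjusted p 0.0180). The call was lost without Falcor-null replicate 1 (log2 difference -1.78, adjusted p 0.0513), Falcor-null replicate 2 (-1.79, adjusted p 0.0627) or wild type replicate 2 (-1.56, adjusted p 0.0651). Spink4, a Kazal peptide of intestinal goblet cells, gave 4.36, 4.99 and 4.52 on the arrays labelled Falcor-null and 4.02, 4.75 and 4.36 in wild type. It was among the dimmest genes and overlapped (log2 difference 0.25, adjusted p 0.681).

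The kallikreins that LEKTI inhibits did not pass in either direction. Klk7 gave 5.37, 5.49 and 5.48 on the arrays labelled Falcor-null, against 5.18, 5.22 and 5.19 in wild type, without overlap, and its log2 difference of 0.25 had an adjusted p of 0.210. Klk5 and Klk14 differed by 0.26 and 0.11, and all 3 were dim. Of the 11 epithelial membrane proteases and kallikreins measured, 5 were higher, 6 lower and none passed in limma. An unadjusted p under 0.05 was reached by 3 of the 11, against 13.8% of all genes. Prss8, the channel-activating protease prostasin, was among these 3 (log2 difference -0.26, adjusted p 0.217).

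Markers of squamous and upper airway epithelium were lower in 4 of the 5 measured of 12 listed. Their mean ran from 5.21 to 5.35 on the arrays labelled Falcor-null and from 5.60 to 5.79 in wild type. Of the 5, 1 passed in limma, against 0.556% of all genes. This was Bpifa1, a secreted defence protein of the upper airway (adjusted p 0.0383). It gave 7.31, 6.84 and 6.85 on the arrays labelled Falcor-null and 8.25, 8.96 and 8.29 in wild type. The other 4, Sprr1a, Ivl, Krt13 and Trp63, were dim and overlapped between groups, with log2 differences from -0.44 to 0.19. Goblet cell markers were lower in 6 of 8, with means from 5.59 to 5.72 on the arrays labelled Falcor-null and from 5.78 to 6.74 in wild type. Of these 8, 1 passed in limma (Itln1), and 5 had an unadjusted p under 0.05 (13.8% of all genes did). The groups did not overlap in 4 of them, 3 lower and 1 higher, against 19.5% of all genes. The part of either list in the Spink5 result was not tested.

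**Figure D4:**
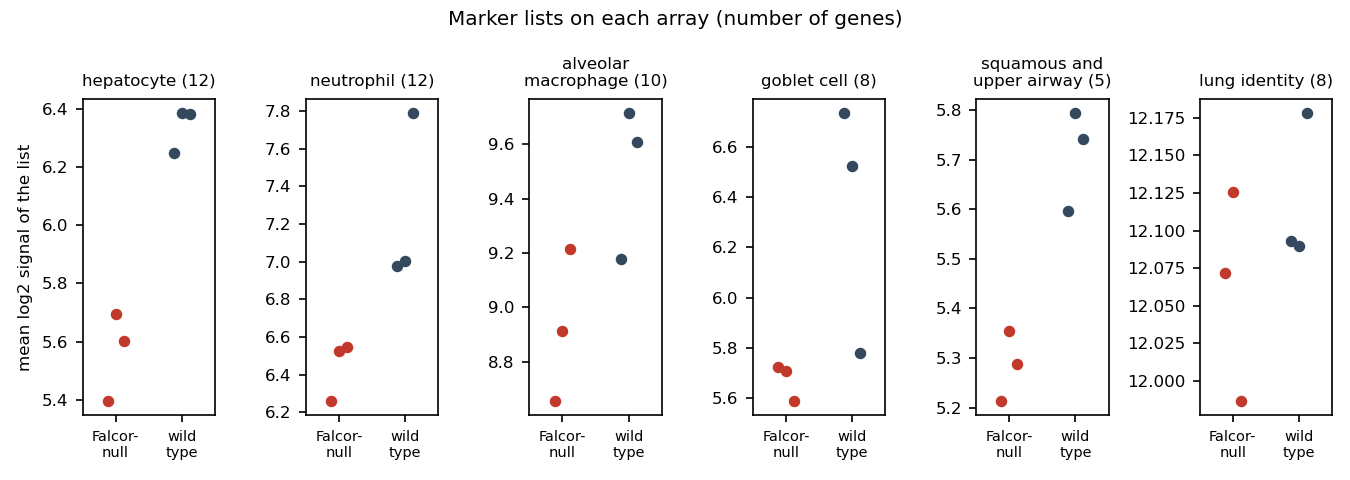
Mean log2 signal of each marker list on each array (y axis, its own range in every panel), arrays labelled Falcor-null left and wild type right, with the number of genes in the title. The groups lie apart for the hepatocyte, neutrophil, goblet cell and squamous lists, while the alveolar macrophage and lung identity lists overlap. For the goblet cell list the nearest arrays are at 5.72 and 5.78. In the squamous list Bpifa1 is the only gene whose groups do not overlap.

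The WAP family was the most numerous and held differences in both directions, none of them passing. Of 15 genes, 8 were higher and 7 lower, with a median log2 difference of 0.07, and 7 had an unadjusted p under 0.05 in limma, 3 higher and 4 lower, where 13.8% of all genes did. The groups did not overlap in 7 genes, 3 of them higher and 4 lower, against 19.5% of all genes.

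Wfdc17, a secreted protein of activated macrophages, gave 7.51, 7.91 and 7.47 on the arrays labelled Falcor-null, against 8.37, 9.48 and 9.13 on the wild-type arrays. The log2 difference of -1.37 (SE 0.27, adjusted p 0.0873) did not pass, and it was -1.68 (adjusted p 0.0373) without wild type replicate 1, the array nearest to those labelled Falcor-null. Wfdc21, its neighbour on chromosome 11, gave 6.67, 6.84 and 6.72 on the arrays labelled Falcor-null and 7.38, 7.16 and 8.30 in wild type. Wild type replicate 3 stood far above the other wild-type arrays, and the log2 difference of -0.87 (adjusted p 0.218) was -0.53 without it. Wfdc18, which lies between Wfdc17 and Wfdc21, gave 5.93, 6.24 and 6.005 on the arrays labelled Falcor-null and 6.01, 5.79 and 5.95 in wild type. Its interval of -0.11 to 0.39 held no fall of the size seen in its neighbours.

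Slpi (probe set 17394153), the elastase and cathepsin G inhibitor of airway secretions and neutrophils, gave 8.11, 8.60 and 8.52 on the arrays labelled Falcor-null, against 8.81, 8.81 and 8.99 on the wild-type arrays. Every array labelled Falcor-null lay below every wild-type array. The log2 difference was -0.46 (SE 0.14, 95% interval -0.78 to -0.14) and did not pass (adjusted p 0.210). Wfdc2, the secretory epithelial protein HE4, gave 10.43, 10.11 and 10.08 on the arrays labelled Falcor-null and 10.16, 10.05 and 10.12 in wild type, with an interval of -0.16 to 0.35.

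Some WAP genes were higher on the arrays labelled Falcor-null. Wfdc1, a stromal growth inhibitor also called ps20, gave 8.55, 8.59 and 8.87 on the arrays labelled Falcor-null, against 8.23, 8.28 and 8.06 on the wild-type arrays. It did not overlap, and its log2 difference of 0.48 (SE 0.11) had an adjusted p of 0.122. Wfdc5 gave 5.61, 5.60 and 5.30 on the arrays labelled Falcor-null and 4.75, 4.94 and 5.26 in wild type (log2 difference 0.52, adjusted p 0.198). Wfdc15a (0.22, adjusted p 0.293) was likewise higher on every array labelled Falcor-null, and Wfdc12 (0.43, adjusted p 0.416) overlapped. Along chromosome 2 these 3 genes come first among the 11 measured in the WAP cluster and Slpi follows them, so that the largest positive and the largest negative difference in the cluster came from genes close together. The other 6 after Wfdc2 in the cluster, namely Wfdc6a, Wfdc16, Wfdc9, Wfdc10, Wfdc13 and Wfdc3, ranged from -0.29 to 0.20, and of these Wfdc16 (adjusted p 0.342) did not overlap. Of the 11 genes 7 were dim by the 30th percentile, among them Wfdc5, Wfdc12 and Wfdc15a.

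**Figure D5:**
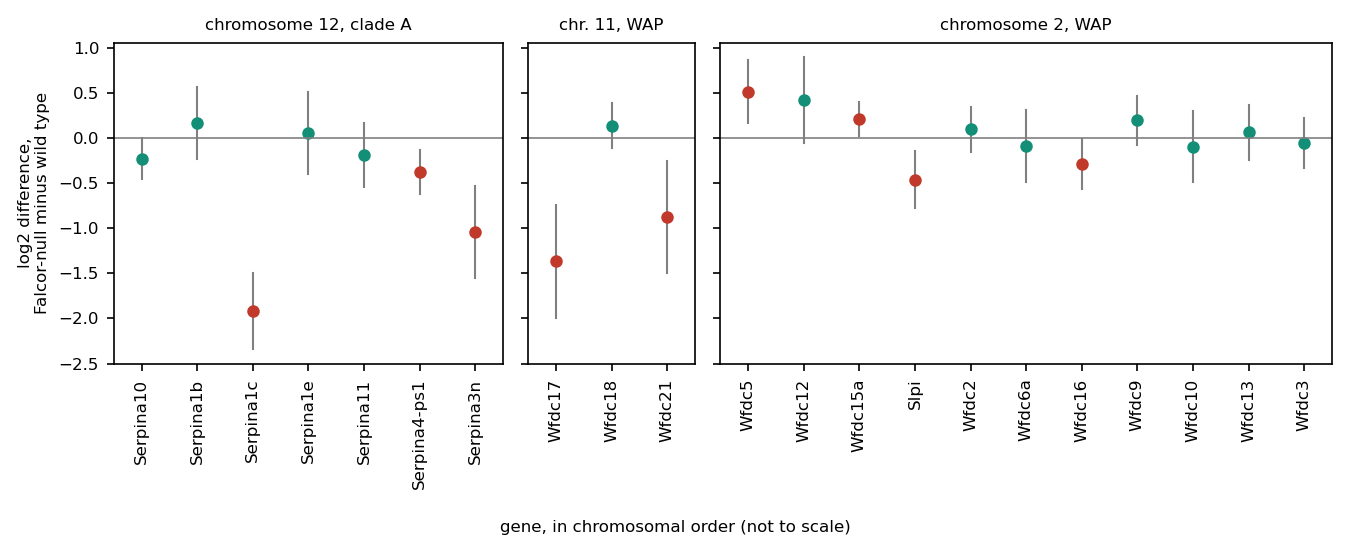
Log2 difference (y axis, arrays labelled Falcor-null minus wild type, with the 95% interval) of the antiprotease genes measured in 3 gene clusters, in chromosomal order along the x axis and not to scale. Red points mark genes whose groups did not overlap and green points the others; Serpina1c (-1.92) stands between Serpina1b (0.17) and Serpina1e (0.06), and Wfdc18 (0.14) between Wfdc17 (-1.37) and Wfdc21 (-0.87).

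Myeloid markers were lower alongside Wfdc17, Wfdc21 and Slpi, but lower markers were not particular to myeloid cells. As with the T and NK list, B and plasma cell markers were lower in all 8 measured genes. Of these 8, 4 passed in limma, against 0.556% of all genes. Alveolar macrophage markers were lower in 10 of 10 measured genes, none passing in limma and 5 with an unadjusted p under 0.05, where 13.8% of all genes had one. Their list means overlapped, from 8.66 to 9.22 on the arrays labelled Falcor-null and from 9.18 to 9.71 in wild type, and wild type replicate 1 was the lowest wild-type array both for this list and for Wfdc17. Neutrophil markers were lower in 11 of 12, again with none passing and 5 under an unadjusted p of 0.05, with means from 6.26 to 6.55 on the arrays labelled Falcor-null and from 6.97 to 7.79 in wild type. The highest neutrophil mean was that of wild type replicate 3. That array gave the highest value of 8 antiprotease genes, and Falcor-null replicate 1 that of 10. The 8 held Wfdc21, Slpi and Serpinb1a, but also Serpina3n, Serpinb9 and Serpinb1b, among others. Wfdc17 was highest on wild type replicate 2. The part of any of these cell types in these results was not tested.

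Among the other proteases that antiproteases meet, cysteine cathepsins and legumain were lower in 8 of 8, with a median log2 difference of -0.37. None passed in limma, 7 had an unadjusted p under 0.05 (13.8% of all genes did), and Ctsk (-1.35, adjusted p 0.123) and Ctsc (-0.35, adjusted p 0.176), which activates the neutrophil serine proteases, had the smallest p-values. Of 6 complement proteases 1 passed, against 0.556% of all genes. Cfb, which forms the alternative pathway convertase, gave 7.72, 7.73 and 7.81 on the arrays labelled Falcor-null, against 8.41, 8.38 and 8.44 in wild type (1.58-fold lower, adjusted p 0.0179). C1ra, which Serping1 blocks, differed by -0.19 (adjusted p 0.576). Of 9 plasminogen and coagulation genes, 6 were lower and 3 higher without passing, 2 of them with an unadjusted p under 0.05, the clotting factors F10 (-0.76, adjusted p 0.168) and F7 (-0.82, adjusted p 0.233).

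Protease inhibitors of other families divided 8 higher to 12 lower among 20 measured, with a median log2 difference of -0.06, close to that of the 38 members. Of the 20, 7 had an unadjusted p under 0.05 in limma (13.8% of all genes did). The groups did not overlap in 9, of which 6 were lower and 3 higher, against 19.5% of all genes. Spock2, a matrix proteoglycan, rose 1.76-fold and was the only gene of the 20 to pass, where 0.556% of all genes passed. It gave 9.90, 9.88 and 9.82 on the arrays labelled Falcor-null, against 9.18, 8.81 and 9.15 in wild type (adjusted p 0.0324). Pzp, an alpha-2-macroglobulin relative, differed by -0.48 (adjusted p 0.0793).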

How the data were processed

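Biotin-labelled RNA of whole lung was read on 1-colour arrays, per the labels' protocols. Each deposited value is the log2 signal of a probe set; oligo, RMA and limma are named, with no version, per the submitters' processing notes. RMA makes the arrays' distributions alike, which removes a shift common to most genes. Small differences between the groups remained. Array medians ran from 6.69 to 6.70 on the arrays labelled Falcor-null and from 6.72 to 6.74 in wild type. The lowest values ran from 2.09 to 2.42 and from 3.19 to 3.22, and the bearing of this on dim genes was not tested. Any row filter and the genome build are not given in the sources used here. Of 24173 probe sets, 17476 had 1 gene symbol and were used, 1308 had several (2 of them with an antiprotease name) and 5389 none. The probe set with the highest mean stood for a gene, leaving 16537 genes. RefSeq (GRCm38.p6) holds 94 protein-coding genes that match the naming rule, and those without such a probe set, among them Serpina1a and Serpina1d, were not analysed here.

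Groups came from the titles. Falcor-null was compared with wild type by lmFit and eBayes (limma 3.58.1, R 4.3.3), two-sided, with Benjamini-Hochberg adjustment over all genes and a threshold of 0.05. A positive log2 difference means higher in Falcor-null. Permuting 3 samples against 3 cannot give an exact p under 0.1. The fit was tested on simulated data with independent noise on each array. That test cannot bear on the day labels, on samples that may share an animal or on signal shared between gene copies. The members and gene lists were chosen with earlier results of these data known. The genes named were those passing, the 4 with the smallest p and the 4 brightest of each family, and preset antiproteases, with up to 2 genes of each protease list. Serpina11, Serpinb8, Spink4 and other members outside that rule, and marker genes and kallikreins, were named after their values were seen. Alternatives were a replicate block, 2 other scalings, other variance models, array weights, a filter on dim genes, other uses of probe sets and leaving out each array. Promoters were compared with Biopython 1.88 and figures drawn with matplotlib 3.10.9 in Python 3.11.15.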

Additional observations from a re-analysis of the deposited data

How the results depend on the processing

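The number of genes passing over all genes was 92 and lay between 18 and 89 with single arrays left out. With the replicate block it was 32, and Serpina1c (adjusted p 0.0346) and Spink5 (adjusted p 0.0271) still passed, so the block changed no call among the antiproteases. The deviations of same-numbered arrays from their group means correlated at 0.022, -0.0025 and -0.081 over all genes. Those of differently numbered arrays ran from -0.068 to 0.066. Whether the replicate numbers stand for any pairing is not stated, and these correlations cannot settle it. Of the antiproteases, between 0 and 3 passed with single arrays left out. The 0 was without Falcor-null replicate 2, where 18 of the 16537 genes passed in limma. With dim genes left out before the fit, 1 passed (Spink5), since Serpina1c was not tested there. At an adjusted p of 0.1 there were 3, with Wfdc17. Of the 38 genes, 27 kept their sign under all alternatives, among them Serpina1c (-2.13 to -1.80), Spink5 (-1.79 to -1.48), Wfdc17 (-1.68 to -1.12), Serpina3n (-1.23 to -0.85) and Slpi (-0.55 to -0.31). The 11 that changed sign had differences of at most 0.099. Serpinb1b was at -0.015 after a second quantile normalization. With single arrays left out, the range was -0.15 to 0.25 for Serpina1e, -0.11 to 0.13 for Serpinb1b, -0.15 to 0.064 for Serpinb1c, -0.20 to 0.045 for Serpinb8, -0.15 to 0.23 for Serpind1, -0.053 to 0.12 for Serpinf1, -0.25 to 0.018 for Wfdc10, -0.033 to 0.20 for Wfdc13, -0.013 to 0.16 for Wfdc2, -0.15 to 0.0057 for Wfdc3 and -0.24 to 0.11 for Wfdc6a. The cause of these changes was not tested beyond the smaller number of arrays. Signal over background is unknown, which limits what can be said of the 19 dim members.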
